A study of Homo sapiens with 12 samples.

Results

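The HOX genes encode homeodomain transcription factors that lie in 4 clusters. All 39 genes of the deposited table whose symbol is HOXA, HOXB, HOXC or HOXD and a number were taken, of 35940 genes in all: 11 in HOXA on chromosome 7, 10 in HOXB on chromosome 17, 9 in HOXC on chromosome 12 and 9 in HOXD on chromosome 2 (GRCh38). Each stands on 1 Ensembl identifier. The cells were ESI017, a human embryonic stem cell line, with an mCitrine reporter on SOX2, grown as colonies of set shape on micropatterned glass. All colonies were kept for 3 days in N2B27, a serum-free basal medium. Treated colonies were also given WNT3A (100, 300 or 1000 ng/ml) together with FGF8 (200 ng/ml), and were then sorted by the reporter into SOX2-negative and SOX2-positive cells. Poly-A RNA was sequenced in 12 libraries: 2 for each gate at 100 and at 1000 ng/ml, 1 for each gate at 300 ng/ml, and 2 for control colonies in N2B27 alone, for which the labels name no gate. All libraries come from 1 reporter line, so they show nothing of other lines or of embryos.

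Within a cluster the genes are numbered by paralog group from the 3′ end, and equal numbers in different clusters mark relatives. In vertebrate embryos, genes at the 3′ end tend to be switched on earlier and reach further forward, while genes at the 5′ end come on later and closer to the tail, an order called collinearity. WNT, FGF and retinoic acid, partly through the CDX factors, are known to open the clusters in the posterior embryo, and the combination of HOX proteins marks position in the hindbrain, the trunk mesoderm and the spinal cord.

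Paralogs resemble each other most in the homeobox, the 180 bases that encode the DNA-binding homeodomain, so the counts of relatives rest on reads that can be told apart there. Homeoboxes of group 9 are shown because HOXB9 was among the most counted HOX genes while HOXC9 and HOXD9 had few counts or none. HOXA9, also of group 9, had 22 counts and is not shown. Over whole transcripts, the longest identical stretch shared by HOX genes of different clusters was 62 bases. The homeoboxes shown are from GENCODE 29 transcripts on GRCh38, and capitals mark bases that differ from HOXB9.
HOXB9: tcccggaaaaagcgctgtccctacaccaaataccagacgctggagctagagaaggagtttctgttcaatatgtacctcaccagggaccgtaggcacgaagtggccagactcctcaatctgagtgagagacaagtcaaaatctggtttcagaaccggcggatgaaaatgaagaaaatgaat
HOXC9: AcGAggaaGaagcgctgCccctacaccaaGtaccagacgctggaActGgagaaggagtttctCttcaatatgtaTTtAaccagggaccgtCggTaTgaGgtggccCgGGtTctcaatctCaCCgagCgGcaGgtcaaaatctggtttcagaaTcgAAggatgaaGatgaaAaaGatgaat
HOXD9: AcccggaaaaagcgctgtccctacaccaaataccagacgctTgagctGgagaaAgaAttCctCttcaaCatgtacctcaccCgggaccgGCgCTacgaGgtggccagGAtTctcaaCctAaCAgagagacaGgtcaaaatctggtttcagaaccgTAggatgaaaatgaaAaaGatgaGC
The HOXB9 homeobox (chr17:48622921-48623100, minus strand) was matched at 82.2% of bases by HOXC9 (chr12:54002465-54002644, plus strand) and 84.4% by HOXD9 (chr2:176123969-176124148, plus strand). The longest stretch without a difference was 20 bases in HOXC9 and 40 bases in HOXD9, shorter than the 150-base reads. Over whole transcripts, 1 of 741 pairs of HOX genes shared an identical stretch of 150 bases or more: HOXC4 and HOXC6, whose exons overlap by 484 bases, so that reads can be split between them. Whether the counting used strand is not stated in the labels, so reads from antisense RNAs cannot be told apart from those of HOXB6, where 15.6% of exon bases overlap HOXB-AS3, or HOXA7, where 63.3% overlap HOXA-AS3. None of 19 listed non-coding and antisense genes of the clusters stood in the table, and they are not analysed here.

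Column totals were 16474856 to 28079048 estimated counts. Levels are CPM, the count divided by the TMM-adjusted library total and given per 1000000, and 3 counts, the limit that a count of 0 allows, came to 0.110 to 0.180 CPM. SOX2, the gene of the sort, was at 1.85 to 5.99 CPM in SOX2-negative, 418 to 467 CPM in SOX2-positive and 652 to 676 CPM in control libraries, which checks the gates and is no finding. Summed markers of definitive endoderm (5 genes) were at 648 to 1250 CPM in SOX2-negative libraries, 7.30 to 26.9 CPM in SOX2-positive and 3.91 to 7.73 CPM in control libraries, and lateral and cardiac mesoderm markers (7 genes) at 242 to 626, 5.06 to 23.1 and 62.0 to 74.1 CPM in the same order. In bulk samples, fewer cells of a type and less RNA per cell cannot be told apart.

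HOX RNA was scarce, and most of it was in SOX2-negative cells. The summed level of all 39 genes was 1.80 and 7.01 CPM in the WNT3A 100 SOX2-negative libraries, 5.57 CPM at 300 ng/ml, and 13.2 and 53.1 CPM at 1000 ng/ml (replicates 1 and 2). In SOX2-positive libraries it was 0.397 and 0.124 CPM at 100 ng/ml, 0.951 CPM at 300 ng/ml and 2.00 and 0.996 CPM at 1000 ng/ml, and in the controls it was 0.0508 and 0.366 CPM. These sums rest on 30 to 1288 counts in SOX2-negative, 3 to 34 in SOX2-positive and 1 and 10 in control libraries. Only 1 SOX2-positive library, WNT3A 1000 replicate 1, was above the lowest SOX2-negative library, and no control library was.

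**Figure D1:**
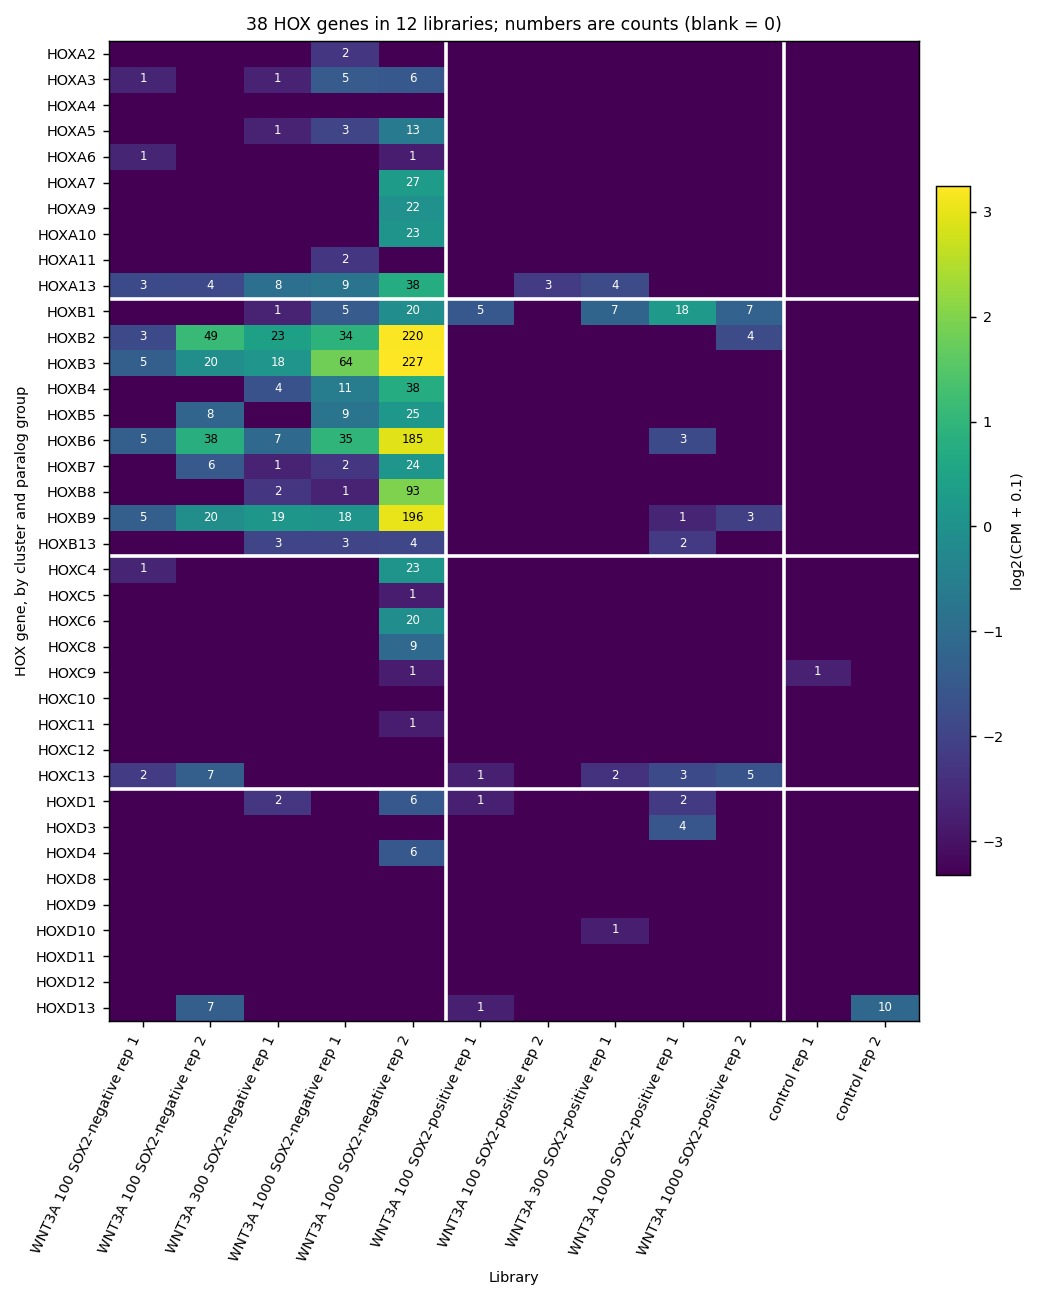
Level of 38 of the HOX genes (down the page, by cluster and paralog group) in each of the 12 libraries (across), coloured by log2(CPM + 0.1), with the count printed where it is above 0. Counts crowd into the SOX2-negative libraries and the HOXB genes, most of all into WNT3A 1000 SOX2-negative replicate 2, where HOXB3 has 227.

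Of the 39 genes, 32 had at least 1 count in some library. A count was found for 30 genes in SOX2-negative, 12 in SOX2-positive and 2 in control libraries, and 19 genes had counts in SOX2-negative libraries only. The 7 with no count anywhere were HOXA4, HOXC10, HOXC12, HOXD8, HOXD9, HOXD11 and HOXD12. The 2 genes counted in control were HOXC9, with 1 count in replicate 1, and HOXD13, with 10 counts (0.366 CPM) in replicate 2. HOXD13, the gene at the 5′ end of its cluster, also had 7 counts in WNT3A 100 SOX2-negative replicate 2 and 1 in WNT3A 100 SOX2-positive replicate 1.

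At a threshold of 1 CPM, the number of HOX genes detected was 0 and 2 in the WNT3A 100 SOX2-negative libraries, 2 at 300 ng/ml, and 4 and 10 at 1000 ng/ml. It was 1 in WNT3A 1000 SOX2-positive replicate 1, where HOXB1 passed, and 0 in the other SOX2-positive and both control libraries. WNT3A 1000 SOX2-negative replicate 2 was also the library in which 21 genes had their highest level, and 8 genes had counts in it alone: HOXA7, HOXA9, HOXA10, HOXC5, HOXC6, HOXC8, HOXC11 and HOXD4. HOXA7 had the most counts of these 8, at 27 (1.11 CPM).

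That library also stood apart in cell type markers. Endothelial and blood markers (5 genes) summed to 282 CPM there and 28.8 to 91.4 CPM in the other SOX2-negative libraries, mostly through the receptor KDR at 271 CPM, against 20.1 to 82.8 CPM for KDR in the others. The same markers summed to 97.4 to 191 CPM in SOX2-positive libraries, above the other SOX2-negative ones, and 9.25 to 11.0 CPM in control. The mesoderm factor HAND1 was at 177 CPM in WNT3A 1000 SOX2-negative replicate 2, against 12.6 to 58.8 CPM in the other SOX2-negative libraries. Its relative HAND2 was at 4.00 CPM there, against 0 to 0.428 CPM. All 7 lateral and cardiac mesoderm markers summed to 626 CPM, against 242 to 593 CPM, with none at 0. HAND1 and HAND2 aside, the rest of that list summed to less there than in WNT3A 1000 SOX2-negative replicate 1, where all 7 came to 593 CPM. Definitive endoderm markers (648 CPM, against 982 to 1250 CPM) and neuromesodermal markers (6 genes, 80.2 CPM, against 108 to 298 CPM) were lower there, and CDX4, one of the neuromesodermal markers, was at 0 in all 5 SOX2-negative libraries. Pluripotent markers (5 genes, 392 CPM, against 591 to 837 CPM) and forebrain markers (5 genes, 25.9 CPM, against 74.6 to 102 CPM) were also lower there. So were hindbrain (5 genes, 3.71 CPM, against 4.32 to 12.5 CPM) and neural crest markers (4 genes, 6.06 CPM, against 7.82 to 9.32 CPM). Extraembryonic mesoderm and amnion markers (6 genes) were higher, at 224 CPM against 163 to 197 CPM, with controls at 216 to 297 CPM. Presomitic mesoderm markers (6 genes) did not stand apart, at 147 CPM against 109 to 256 CPM. The part of these markers in the HOX levels was not tested. Each count of called genes, and the ratio or bound of each called gene, was also taken without this library, the ratios as a choice made after seeing the data.

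**Figure D2:**
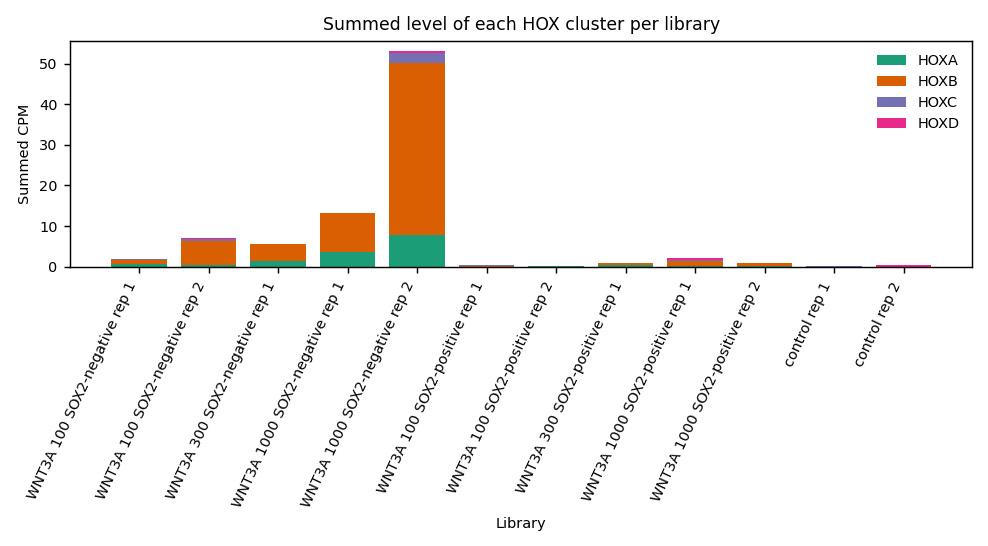
Summed level of each HOX cluster in CPM (bar height, stacked by cluster) in each of the 12 libraries. HOXB makes up the largest share of every SOX2-negative bar, and the bar of WNT3A 1000 SOX2-negative replicate 2 reaches 53.1 CPM, against 13.2 CPM in replicate 1.

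The HOXB cluster held 60.0% to 86.0% of the HOX counts in each of the 5 SOX2-negative libraries. HOXA held 5.49% to 30.0%, HOXC 0.0% to 10.0% and HOXD 0.0% to 4.27%. Within HOXB, the 4 genes HOXB2, HOXB3, HOXB6 and HOXB9, chosen after their values were seen, made up 60.0% of all HOX counts, which also scale with transcript length, in WNT3A 100 replicate 1 (exact Clopper-Pearson 95% interval 40.6% to 77.3%), 77.4% in WNT3A 100 replicate 2 (70.3% to 83.6%), 64.4% at 300 ng/ml (54.4% to 73.6%), and 60.6% (54.3% to 66.8%) and 64.3% (61.6% to 66.9%) in WNT3A 1000 replicates 1 and 2. The 4-gene share of replicate 2 at 1000 ng/ml lay within the interval of replicate 1, although it held 1288 HOX counts against 249. Its members did not all hold steady between replicates 1 and 2. HOXB9 held 7.23% (4.34% to 11.2%) and 15.2% (13.3% to 17.3%), and HOXB3 25.7% (20.4% to 31.6%) and 17.6% (15.6% to 19.8%). The intervals of HOXB2 (13.7% and 17.1%) and HOXB6 (14.1% and 14.4%) overlapped. Outside the 4, HOXB8 held 0.402% and 7.22%. The intervals cover counting error only.

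The order of levels along HOXB did not run evenly from one end to the other. Divided by the median length of the coding transcripts, the levels in WNT3A 1000 SOX2-negative replicate 2 were, in paralog order, 0.408 CPM per kilobase for HOXB1, 5.80 for HOXB2, 5.55 for HOXB3, 0.417 for HOXB4, 0.505 for HOXB5, 4.21 for HOXB6, 0.721 for HOXB7, 5.16 for HOXB8, 3.13 for HOXB9 and 0.0475 for HOXB13. HOXB4, HOXB5 and HOXB7 thus lay below both the group 2 and 3 genes before them and HOXB6, HOXB8 and HOXB9 beside them. Divided by the longest coding transcript instead, a choice made after seeing the data, HOXB3 came to 2.22 and HOXB8 to 2.10 CPM per kilobase. The place of these 2 genes in the order therefore rests on which transcripts are used, which gene counts do not show.

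**Figure D3:**
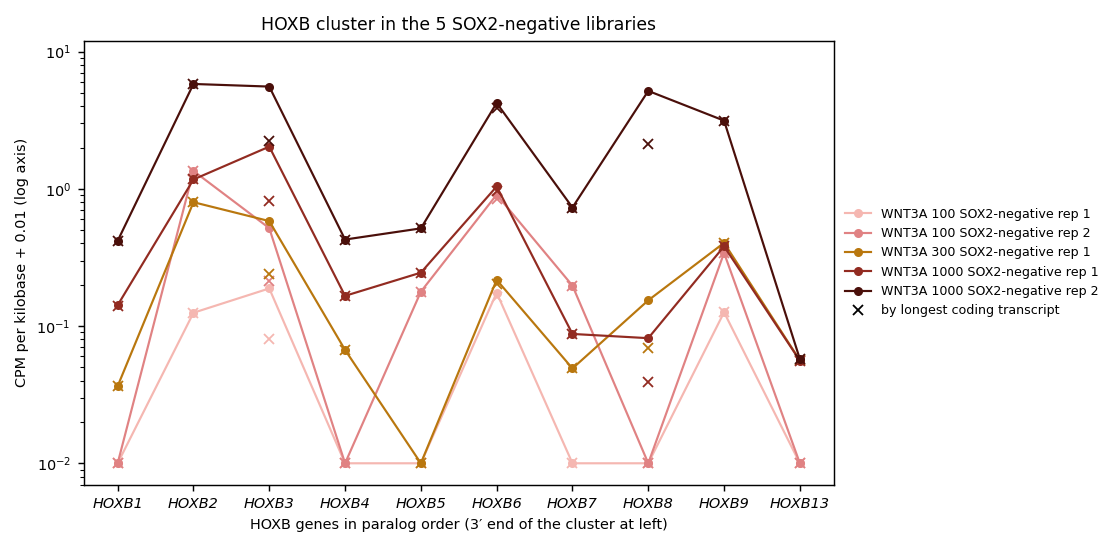
Level per kilobase (log axis, with 0.01 added) of the 10 HOXB genes in paralog order in the 5 SOX2-negative libraries. Filled points use the median coding transcript length and crosses the longest. HOXB2, HOXB3, HOXB6 and HOXB9 form the peaks in each library, and HOXB8 joins them in WNT3A 1000 replicate 2 alone, at 5.16 or 2.10 CPM per kilobase by transcript length.

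SOX2-negative cells were compared with SOX2-positive cells over the 4 libraries of each gate at 100 and 1000 ng/ml. The libraries were taken as independent, without pairing the gates of the same dose and replicate. Of 39 members, 5 were higher in SOX2-negative cells, HOXB2, HOXB3, HOXB6 and HOXB9 among them, and no HOX gene was lower. Over all 17047 genes tested, 24.0% were called, 12.9% higher and 11.1% lower. In all, 17 HOX genes passed the filter on low counts and 22 did not. Most of the 17 passed on their SOX2-negative libraries, so the share called among them is not read as a result.

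HOXB3 (ENSG00000120093, chromosome 17, 48548870 to 48604912, minus strand), a group 3 gene active in the hindbrain and trunk, had 0.299 and 0.855 CPM in WNT3A 100 SOX2-negative libraries, 0.964 CPM at 300 ng/ml, and 3.40 and 9.36 CPM at 1000 ng/ml. It had no count in any of the 5 SOX2-positive or 2 control libraries, so the groups did not overlap. The level in SOX2-negative cells was at least 106-fold higher than in SOX2-positive cells, taking 3 counts over the 4 SOX2-positive libraries as the limit (adjusted p = 0.0014 by the quasi-likelihood test of edgeR, adjusted after Benjamini and Hochberg over all genes tested). WNT3A 1000 SOX2-negative replicate 2 held 227 of the counts, and without it the bound was 42.0-fold.

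HOXB2 (ENSG00000173917, chromosome 17, 48540894 to 48544989, minus strand), known for its part in hindbrain segments, had 0.180 and 2.09 CPM in WNT3A 100 SOX2-negative libraries, 1.23 CPM at 300 ng/ml, and 1.81 and 9.07 CPM at 1000 ng/ml. In SOX2-positive libraries its only counts were 4 in WNT3A 1000 replicate 2, or 0.181 CPM, slightly above the lowest SOX2-negative library. It was 76.8-fold higher in SOX2-negative cells over pooled counts (95% counting interval 29.7 to 284, adjusted p = 0.0076, edgeR), and 30.5-fold without WNT3A 1000 SOX2-negative replicate 2.

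HOXB6 (ENSG00000108511, chromosome 17, 48595751 to 48604992, minus strand), a trunk gene of the middle of the cluster that is also active in lateral mesoderm, had 0.299 and 1.62 CPM in WNT3A 100 SOX2-negative libraries, 0.375 CPM at 300 ng/ml, and 1.86 and 7.62 CPM at 1000 ng/ml. It had 3 counts (0.177 CPM) in WNT3A 1000 SOX2-positive replicate 1 and none in the other SOX2-positive or the control libraries. All 4 SOX2-negative libraries tested were above all 4 SOX2-positive ones. The pooled ratio was 88.0 (29.8 to 429, adjusted p = 0.0061, edgeR), and 36.8 without WNT3A 1000 SOX2-negative replicate 2.

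HOXB9 (ENSG00000170689, chromosome 17, 48621159 to 48626356, minus strand), a gene of the thoracic trunk, had 0.299 and 0.855 CPM in WNT3A 100 SOX2-negative libraries, 1.02 CPM at 300 ng/ml, and 0.958 and 8.08 CPM at 1000 ng/ml. SOX2-positive libraries at 1000 ng/ml had 0.059 and 0.136 CPM, and the others and the controls had none. The groups did not overlap, and the pooled ratio was 60.0 (23.1 to 222, adjusted p = 0.0062, edgeR). That ratio rested on single libraries: it was 15.2 without WNT3A 1000 SOX2-negative replicate 2, which held 196 of the counts, and 176 without WNT3A 1000 SOX2-positive replicate 2. Of its relatives, HOXC9 had 2 counts and HOXD9 had 0 over all 12 libraries, and HOXA9 had 22, all in WNT3A 1000 SOX2-negative replicate 2.

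All 5 calls between the gates were kept under each of the 16 alternatives, including without WNT3A 1000 SOX2-negative replicate 2. Leaving out WNT3A 100 SOX2-negative replicate 1 gave 7 calls.

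**Figure D4:**
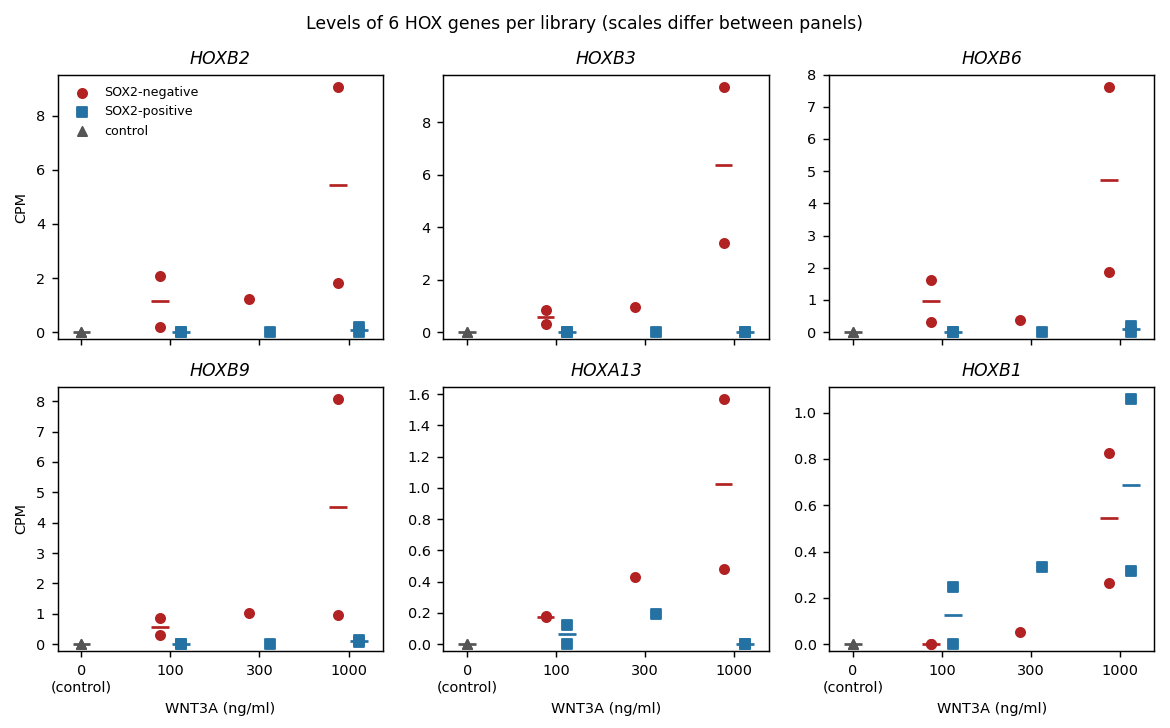
Level in CPM (linear axes that differ between panels) of HOXB2, HOXB3, HOXB6, HOXB9, HOXA13 and HOXB1 in each library, by WNT3A dose in steps that are not to scale. Circles are SOX2-negative, squares SOX2-positive and triangles control libraries, and bars are means of 2 libraries. HOXB3 replicates in SOX2-negative cells at 1000 ng/ml lie at 3.40 and 9.36 CPM, and HOXB1 is the panel in which SOX2-positive libraries reach the top, at 1.06 CPM.

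HOXB1 (ENSG00000120094, chromosome 17, 48528526 to 48531001, minus strand), which gives the fourth hindbrain segment its identity in the mouse, had another distribution. It had no count in either WNT3A 100 SOX2-negative library, 0.0536 CPM at 300 ng/ml, and 0.266 and 0.824 CPM at 1000 ng/ml. SOX2-positive libraries had 0.248 and 0 CPM at 100 ng/ml, 0.333 CPM at 300 ng/ml, and 1.06 and 0.317 CPM at 1000 ng/ml, and both controls had none. The gates overlapped, and over the libraries tested the ratio of SOX2-negative to SOX2-positive was 0.836 (95% counting interval 0.472 to 1.47, adjusted p = 0.31, edgeR), so neither a higher nor a lower level was detectable. HOXB1 held 37 of the counts in SOX2-positive libraries, more than any other HOX gene there.

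The HOXB1 promoter is shown because the gene lies in the same cluster as the 4 called HOXB genes and was spread over both gates. In the mouse, Hoxb1 protein together with Pbx proteins acts on repeats just upstream of its own gene. In the RefSeq promoters of GRCh38.p14, which matched 20 of the 39 HOX genes, the letters TGATNNAT, searched on both strands as a HOX-PBX motif, were found in 7.42% of 34796 promoters of 300 bases and at 3 HOX genes, HOXA2, HOXB1 and HOXD11. The HOXB1 window from 200 to 51 bases before the start (chr17:48531062-48531211, minus strand) holds 1 match, 125 to 118 bases before the start, in capitals.
HOXB1 promoter: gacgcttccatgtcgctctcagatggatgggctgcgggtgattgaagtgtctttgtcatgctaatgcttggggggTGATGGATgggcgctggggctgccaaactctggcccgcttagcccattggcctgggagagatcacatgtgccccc
The TCF/LEF core CTTTGA was found in 12.9% of all promoters and at 4 HOX genes (HOXA10, HOXA11, HOXB1 and HOXD12), and the CDX letters TTTATG in 10.6% and at 3 (HOXA3, HOXA9 and HOXD8). The retinoic acid response element made of AGGTCA repeated after 5 bases was found in 0.00575% of promoters and at no matched HOX gene. A match is a description of these letters and was not tested as a binding site.

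Against control, every HOX gene called in SOX2-negative cells was higher, at both doses tested. The counts are of all 39 HOX genes, of which 17 were tested, while the shares are of genes tested. Most of the 17 passed the filter on their SOX2-negative libraries, so the counts called are not read as a result. At 1000 ng/ml, 6 of 39 HOX genes were higher and none lower, where 17.8% of all genes tested were called, 10.7% higher and 7.1% lower. Among them were HOXA13 (at least 17.1-fold, adjusted p = 0.043), HOXB2 (at least 92.4-fold, adjusted p = 0.015), HOXB3 (at least 106-fold, adjusted p = 0.0034), HOXB6 (at least 80.0-fold, adjusted p = 0.012) and HOXB9 (at least 77.8-fold, adjusted p = 0.0084, all edgeR). Each of these 5 was at 0 in both controls, so each fold is a bound against 3 counts over the 2 controls. Leaving out control replicate 1 or 2 lowers every such bound by over 1.5 times, because 3 counts are then set against 1 library. Without WNT3A 1000 SOX2-negative replicate 2 the bounds were 7.50-fold for HOXA13, 28.3-fold for HOXB2, 53.3-fold for HOXB3, 29.2-fold for HOXB6 and 15-fold for HOXB9, and without replicate 1 they were 142-fold for HOXB2 and 127-fold for HOXB9. Without WNT3A 1000 SOX2-negative replicate 2, 2 calls remained, HOXB3 among them. The same 2 remained without control replicate 2, and HOXB9 besides these without control replicate 1. DESeq2 called all of the 6 but HOXB3 (adjusted p = 0.069, DESeq2).

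HOXA13 (ENSG00000106031, chromosome 7, 27193503 to 27200106, minus strand), the 5′-most gene of its cluster, known for limb ends and the hindgut, was the only group 13 gene called. It had 0.180 and 0.171 CPM in WNT3A 100 SOX2-negative libraries, 0.428 CPM at 300 ng/ml, and 0.479 and 1.57 CPM at 1000 ng/ml. SOX2-positive libraries had 0 and 0.124 CPM at 100 ng/ml, 0.190 CPM at 300 ng/ml and none at 1000 ng/ml. HOXA13 thus had counts in all 5 SOX2-negative libraries while HOXA9 and HOXA10, nearer the middle of the cluster, had counts in 1. These counts are not scaled to length, and the median coding transcript is 5022.5 bases for HOXA13, 1428.5 for HOXA9 and 2175 for HOXA10. Per kilobase in WNT3A 1000 SOX2-negative replicate 2, HOXA13 was at 0.312 CPM, below HOXA9 (0.635) and HOXA10 (0.436). Between the gates it did not pass (ratio 18.1, 5.86 to 90.3, adjusted p = 0.052, edgeR), and against control its call was lost when the replicate block entered the model (adjusted p = 0.052, edgeR), with identifiers apart (adjusted p = 0.060, edgeR), without WNT3A 1000 SOX2-negative replicate 1 and without either control.

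At 100 ng/ml, 4 of 39 HOX genes were higher against control and none lower, where 20.6% of all genes tested were called, 11.9% higher and 8.66% lower. They were HOXB2 (at least 20.3-fold, adjusted p = 0.044), HOXB3 (at least 9.76-fold, adjusted p = 0.027), HOXB6 (at least 16.8-fold, adjusted p = 0.039) and HOXB9 (at least 9.76-fold, adjusted p = 0.045, all edgeR). This set was fragile: 0 HOX genes were called without WNT3A 100 SOX2-negative replicate 2, without WNT3A 1000 SOX2-negative replicate 2 or without either control library, and fitting the compared groups alone gave no value, since no HOX gene then passed the filter. Without WNT3A 100 SOX2-negative replicate 2 the bounds were 4.69-fold for HOXB3, HOXB6 and HOXB9, and without replicate 1 they were 32.8-fold for HOXB2 and 25.4-fold for HOXB6. DESeq2 called 3, HOXB6 and HOXB9 among them, and HOXB3 alone was called with identifiers apart.

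In SOX2-positive cells no HOX gene was called against control at either dose by edgeR. At 100 ng/ml, where 4.22% of all genes tested were called (2.69% higher and 1.53% lower), no HOX gene had an unadjusted p under 0.05, against 16.9% of all genes, and at 1000 ng/ml, where 5.6% were called (3.63% higher and 1.97% lower), 2 did, against 18.1%. Of the 17 HOX genes tested, HOXA13 (3 counts) and HOXB1 (5 counts) alone had a count in either group at 100 ng/ml. At 1000 ng/ml most of the 17 had none in either group. A gene with no count in both groups cannot be called, so nothing is read from these shares. DESeq2 called none at either dose. At 1000 ng/ml HOXB1 had 25 counts over 2 libraries against 0 in the controls, at least 10.0-fold higher (adjusted p = 0.16, edgeR). At this depth, levels below 0.124 to 0.177 CPM, the limit of 3 counts in a SOX2-positive library, could go unseen.

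WNT3A 1000 was compared with 100 ng/ml within each gate to ask for an effect of dose. No HOX gene was called in SOX2-negative cells by edgeR, and 0.0% of all 17047 genes were, so the comparison called nothing with these replicates. At an unadjusted p under 0.05 there were 6 HOX genes, where 18.2% of all genes tested were, and DESeq2 called 0 HOX genes but 423 genes in all. Both libraries at 1000 ng/ml were above both at 100 ng/ml for 12 of 39 HOX genes, 10 of them among the 17 that passed the filter, and for 21.6% of all genes tested. As most of the 17 passed on their SOX2-negative libraries, nothing is read from that share. HOXB3, HOXB6 and HOXB9 were among the 12, whereas HOXB2 overlapped, at 1.81 and 9.07 CPM at 1000 ng/ml against 0.180 and 2.09 CPM at 100 ng/ml. The gap between replicate 1 at 1000 ng/ml and replicate 2 at 100 ng/ml was narrow for HOXB6 and HOXB9. HOXB6 was at 1.86 and 1.62 CPM (35 and 38 counts), and HOXB9 at 0.958 and 0.855 CPM (18 and 20 counts). The single 300 ng/ml library lay below both WNT3A 1000 libraries for HOXB2, HOXB3 and HOXB6, but not for HOXB9.

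In SOX2-positive cells, 0 HOX genes were called between the doses by edgeR (0.0% of all genes), with 1 at an unadjusted p under 0.05 (1.72% of all genes) and 0 by DESeq2. The difference of the dose effect between the gates gave 0 HOX calls (0.0% of all genes), with 0 at an unadjusted p under 0.05 (7.91% of all genes) and 0 by DESeq2. Most of the 17 HOX genes tested had no count in SOX2-positive libraries at these doses, so nothing is read from these shares. A larger dose effect in SOX2-negative cells was therefore not shown.

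The remaining HOXB genes were at lower counts or in fewer libraries. HOXB4 had 0 and 0 CPM in WNT3A 100 SOX2-negative libraries, 0.214 CPM at 300 ng/ml, and 0.585 and 1.57 CPM at 1000 ng/ml, and HOXB5 had 0, 0.342, 0, 0.479 and 1.03 CPM in the same order. HOXB7 reached 0.989 CPM and HOXB8 3.83 CPM in WNT3A 1000 SOX2-negative replicate 2, while HOXB8 had 1 count in replicate 1. None of these 4 genes had a count in SOX2-positive or control libraries. Not one was called in any comparison by the edgeR model of all 12 libraries with the filter on low counts. Their lowest adjusted p values there were 0.065 (HOXB4, WNT3A 1000 SOX2-negative against control), 0.056 (HOXB5, between the gates), 0.095 (HOXB7, between the gates) and 0.096 (HOXB8, WNT3A 1000 SOX2-negative against control, edgeR). Each of the 4 was called under at least 1 alternative. HOXB13, which lies apart from the rest of its cluster, had at most 4 counts.

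Of the other HOXA genes, HOXA3 had 13 counts and HOXA5 17 counts over all SOX2-negative libraries, HOXA2, HOXA6 and HOXA11 had 2 each, and HOXA10 had 23, all in WNT3A 1000 SOX2-negative replicate 2. In HOXC, HOXC4 had 24 counts and HOXC6 20, of which 23 and 20 were in that library, HOXC8 had 9, and the 484 shared bases leave the split between HOXC4 and HOXC6 uncertain. HOXC13, at the 5′ end, differed from these: it had 9 counts in SOX2-negative libraries, all at 100 ng/ml, and 11 in SOX2-positive libraries over all 3 doses. In HOXD, HOXD1 had 8 counts in SOX2-negative and 3 in SOX2-positive libraries, HOXD3 had 4 and HOXD10 had 1, all in SOX2-positive libraries, and HOXD4 had 6. HOXB1, HOXC13, HOXD3 and HOXD10 were the 4 genes with more counts in SOX2-positive than in SOX2-negative libraries.

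Among 19 listed genes known to act upstream of HOX genes, 18 were tested, and between the gates 4 were higher (CDX2, RARA, RARB and CYP26A1) and 3 lower (GDF11, ALDH1A2 and CYP26C1) in SOX2-negative cells. Of these 7, CDX2 and CYP26A1 were called under every alternative run. The median log2 fold change of the 18 was 0.15, against 0.01 over all genes, of which 12.9% were called higher and 11.1% lower. CDX2, which activates trunk HOX genes, had 4.25 and 5.09 CPM in WNT3A 100 SOX2-negative libraries, 10.9 CPM at 300 ng/ml, and 18.0 and 17.0 CPM at 1000 ng/ml, against 0.0905 to 1.06 CPM in SOX2-positive and 0 and 0.0366 CPM in control libraries. The groups did not overlap, replicates were close, and the ratio between the gates was 28.6 (20.2 to 41.8, log2 fold change 4.48 ± 0.53 SE, adjusted p = 0.00014, edgeR), and 50.2 without WNT3A 1000 SOX2-positive replicate 1. CDX2 was also higher in SOX2-negative cells against control at both doses (adjusted p = 0.00077 at 100 and 0.00016 at 1000 ng/ml, edgeR), and CDX2 did not stand out in WNT3A 1000 SOX2-negative replicate 2.

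CDX1, its relative, was at 1.74 and 1.07 CPM in WNT3A 100 SOX2-negative libraries, 1.34 CPM at 300 ng/ml and 1.86 and 0.824 CPM at 1000 ng/ml. SOX2-positive libraries reached the same range at the highest dose, with 0.397 and 0 CPM at 100 ng/ml, 0.761 CPM at 300 ng/ml and 1.65 and 1.36 CPM at 1000 ng/ml, and both controls had none. It did not pass between the gates (ratio 1.66, adjusted p = 0.27), and against control it was at least 21.1-fold higher in SOX2-negative cells at 100 ng/ml (adjusted p = 0.018), at least 20.0-fold at 1000 ng/ml (adjusted p = 0.019) and at least 23.3-fold higher in SOX2-positive cells at 1000 ng/ml (adjusted p = 0.041, all edgeR). Each of these 3 calls was lost without either control library, that in SOX2-negative cells at 1000 ng/ml also without replicate 1 of that group (at least 12.9-fold), and that in SOX2-positive cells also with identifiers apart and without any of the 4 libraries at 1000 ng/ml. CDX4, the last of the family, had counts in SOX2-positive libraries at 100 and 300 ng/ml alone, at 0.330 to 0.397 CPM.

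Against control, CDX1, CDX2, TBXT and GBX2 were higher in SOX2-negative cells at both doses. TBXT, the mesoderm factor brachyury, was 25.3-fold higher at 100 ng/ml (17.6 to 37.5, adjusted p = 0.024) and 47.0-fold at 1000 ng/ml (33.0 to 69.5, adjusted p = 0.012), and GBX2, a hindbrain gene, was 37.2-fold (14.2 to 139, adjusted p = 0.020) and 24.3-fold higher (9.16 to 91.1, adjusted p = 0.031, all edgeR). Without SOX2-negative replicate 1 the TBXT ratio was 16.3 at 100 ng/ml and 13.8 at 1000 ng/ml, and the GBX2 ratio 5.81 at 1000 ng/ml. Without SOX2-negative replicate 2 at 1000 ng/ml they were 89.9 for TBXT and 48.1 for GBX2. Without control replicate 1 the GBX2 ratio was 21.6 at 100 ng/ml and 14.1 at 1000 ng/ml. All 4 of these TBXT and GBX2 calls were lost without either control library, and at 1000 ng/ml also without SOX2-negative replicate 1. GBX2 at 1000 ng/ml passed narrowly and was also lost under the replicate block (adjusted p = 0.051, edgeR). Lower against control in SOX2-negative cells were 5 listed genes at 100 ng/ml (GDF11, ALDH1A2, CYP26C1, LIN28A and LIN28B) and 4 at 1000 ng/ml (ALDH1A2, CYP26C1, LIN28A and SALL4), of which ALDH1A2 and CYP26C1 at both doses and LIN28A at 1000 ng/ml were called under every alternative run. Over all genes tested, 11.9% were higher and 8.66% lower in SOX2-negative cells at 100 ng/ml, and 10.7% and 7.1% at 1000 ng/ml. In SOX2-positive cells 0 listed genes were higher and 3 lower at 100 ng/ml (ALDH1A2, CYP26C1 and LIN28A), and CDX1 was higher and 4 lower at 1000 ng/ml, with SALL4 added. There, 2.69% of all genes were higher and 1.53% lower at 100 ng/ml, and 3.63% and 1.97% at 1000 ng/ml. Between the gates neither TBXT (ratio 2.72, adjusted p = 0.16) nor GBX2 (ratio 4.09, adjusted p = 0.076) passed.

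The retinoic acid genes moved in both directions. ALDH1A2, which makes retinoic acid, was at 0.180 and 0.299 CPM in WNT3A 100 SOX2-negative libraries, 0.0536 CPM at 300 ng/ml and 0 and 0.247 CPM at 1000 ng/ml. It was at 0.413 to 3.67 CPM in SOX2-positive and 47.2 and 67.5 CPM in control libraries, so the treated libraries lay far below control. The ratio to control in SOX2-negative cells was 0.00423 at 100 ng/ml (adjusted p = 0.00078) and 0.00236 at 1000 ng/ml (adjusted p = 0.00056, edgeR), the second being 0.00419 without SOX2-negative replicate 1. CYP26C1, an enzyme that breaks retinoic acid down, was also lower, with ratios of 0.0115 (adjusted p = 0.0023) and 0.00608 (adjusted p = 0.0014, edgeR). Its ratio was 0.00522 without SOX2-negative replicate 2 at 100 ng/ml, and at 1000 ng/ml 0.00229 and 0.0110 without SOX2-negative replicates 1 and 2. Both genes were lower in SOX2-positive cells against control as well, at 100 and at 1000 ng/ml (adjusted p = 0.011 and 0.013 for ALDH1A2, 0.041 and 0.040 for CYP26C1, edgeR), though each of these 4 calls was lost without SOX2-positive replicate 1 of its dose and without either control.

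CYP26A1, the main retinoic acid degrading enzyme of the early embryo, was at 280 and 271 CPM in WNT3A 100 SOX2-negative libraries, 305 CPM at 300 ng/ml, and 290 and 31.1 CPM at 1000 ng/ml. SOX2-positive libraries were at 35.4 to 51.1 CPM and controls at 201 and 195 CPM. It was 4.71-fold higher in SOX2-negative than in SOX2-positive cells (adjusted p = 0.0074, edgeR), in 3 of 4 libraries, and the exception was WNT3A 1000 SOX2-negative replicate 2, the library with the most HOX RNA, which lay below every SOX2-positive library. Against control it passed at neither dose (adjusted p = 0.64 at 100 and 0.81 at 1000 ng/ml).

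**Figure D5:**
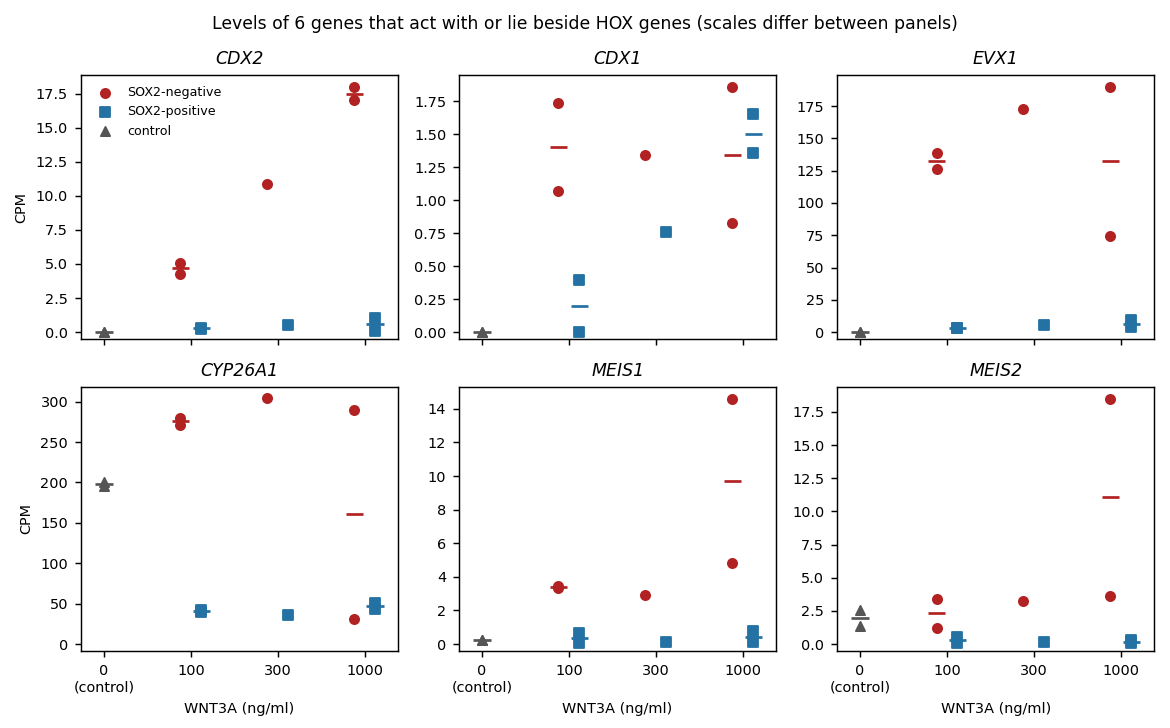
Level in CPM (linear axes that differ between panels) of CDX2, CDX1, EVX1, CYP26A1, MEIS1 and MEIS2 in each library, by WNT3A dose in steps that are not to scale. Circles are SOX2-negative, squares SOX2-positive and triangles control libraries, and bars are means of 2 libraries. CDX2 replicates at 1000 ng/ml lie together at 18.0 and 17.0 CPM, while CYP26A1 splits into 290 and 31.1 CPM.

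HOX proteins bind DNA together with cofactors of the MEIS and PBX families. Of 9 cofactor genes tested, 2 were higher, MEIS1 and MEIS2, and 2 lower, PBX3 among them, in SOX2-negative than in SOX2-positive cells (median log2 fold change over the 9 of 0.27, against 0.01 over all genes). Over all genes tested, 12.9% were higher and 11.1% lower. MEIS1 was at 3.47 and 3.33 CPM in WNT3A 100 SOX2-negative libraries, 2.95 CPM at 300 ng/ml, and 4.84 and 14.6 CPM at 1000 ng/ml, against 0.0496 to 0.769 CPM in SOX2-positive and 0.254 and 0.256 CPM in control libraries (ratio between the gates 16.2, 11.6 to 23.4, log2 fold change 3.79 ± 0.68 SE, adjusted p = 0.0024, edgeR). MEIS2 was at 3.41, 1.24, 3.27, 3.62 and 18.5 CPM in the same order of SOX2-negative libraries, against 0.0992 to 0.536 CPM in SOX2-positive and 1.37 and 2.56 CPM in control libraries, so it was higher between the gates (ratio 26.3, adjusted p = 0.0015) but overlapped control at 100 ng/ml (ratio 1.04, adjusted p = 0.88, edgeR). Both were highest in WNT3A 1000 SOX2-negative replicate 2, without which the ratios between the gates were 8.94 for MEIS1 and 9.49 for MEIS2, and the MEIS2 ratio was 42.9 without WNT3A 100 SOX2-positive replicate 2.

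PBX3 went the other way, at 32.0 and 34.8 CPM in WNT3A 100 SOX2-negative libraries, 30.6 CPM at 300 ng/ml, and 27.2 and 41.0 CPM at 1000 ng/ml, against 57.0 to 86.7 CPM in SOX2-positive and 46.9 and 45.6 CPM in control libraries. SOX2-negative and SOX2-positive libraries did not overlap (ratio 0.481, log2 fold change -1.06 ± 0.19 SE, adjusted p = 0.0021, edgeR). Against control, 3 cofactor genes were higher (MEIS1, MEIS3 and PBX4) and 2 lower (PKNOX2 among them) in SOX2-negative cells at 100 ng/ml, and 1 higher (MEIS1) and 2 lower (PKNOX2 among them) at 1000 ng/ml. Over all genes tested, 11.9% were higher and 8.66% lower in SOX2-negative cells at 100 ng/ml, and 10.7% and 7.1% at 1000 ng/ml. In SOX2-positive cells against control, PKNOX2 was the 1 cofactor gene called, lower at both doses, where 1.53% and 1.97% of all genes were lower. MEIS1 was called in SOX2-negative cells at 100 ng/ml (adjusted p = 0.026) and 1000 ng/ml (adjusted p = 0.0054), and both calls were lost without either control library, that at 1000 ng/ml also without SOX2-negative replicate 2 (adjusted p = 0.051, edgeR).

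Polycomb complexes keep HOX clusters silent in stem cells, and trithorax complexes and histone demethylases open them. Of 19 such genes tested, 3 were higher (KDM6B, BMI1 and CBX8) and 3 lower (KDM6A, EZH1 and JARID2) in SOX2-negative than in SOX2-positive cells. The median log2 fold change of the 19 was -0.02, against 0.01 over all genes, of which 12.9% were called higher and 11.1% lower. The 2 demethylases of the polycomb mark thus differed in sign, and KDM6B and JARID2 were the 2 of these 6 called under every alternative run. KDM6B was at 107 and 82.5 CPM in WNT3A 100 SOX2-negative libraries, 130 CPM at 300 ng/ml and 132 and 134 CPM at 1000 ng/ml, against 45.4 to 57.1 CPM in SOX2-positive and 57.9 and 56.3 CPM in control libraries (ratio between the gates 2.24, log2 fold change 1.13 ± 0.15 SE, adjusted p = 0.00028, edgeR). JARID2, a partner of polycomb complex PRC2, was at 98.5 to 188 CPM in SOX2-negative, 344 to 400 CPM in SOX2-positive and 220 and 221 CPM in control libraries (ratio between the gates 0.383, adjusted p = 0.00011, edgeR). Against control in SOX2-negative cells, 2 were higher and 3 lower at 100 ng/ml, and 1 was higher and 1 lower at 1000 ng/ml. Over all genes tested, 11.9% were higher and 8.66% lower in SOX2-negative cells at 100 ng/ml, and 10.7% and 7.1% at 1000 ng/ml. In SOX2-positive cells none of the 19 was called against control at either dose, where 4.22% and 5.6% of all genes were.

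Genes that border the clusters were listed to see how far the pattern reached. Of 11 tested, EVX1 was higher and TTLL6 lower in SOX2-negative than in SOX2-positive cells, where 12.9% of all genes tested were higher and 11.1% lower. TTLL6 was lower between the gates (adjusted p = 6.1e-06) and against control at 100 (0.00023) and 1000 ng/ml (0.00012, all edgeR). MTX2 at 100 ng/ml and SKAP2 at 1000 ng/ml were higher than control in SOX2-negative cells (adjusted p = 0.041 and 0.004, edgeR). The MTX2 call was lost with no filter on low counts. EVX1, a homeobox gene of the primitive streak, lies 42593 bases beyond HOXA13 (chromosome 7, 27242700 to 27250493). It was at 139 and 126 CPM in WNT3A 100 SOX2-negative libraries, 173 CPM at 300 ng/ml, and 190 and 74.3 CPM at 1000 ng/ml, against 2.85 to 9.55 CPM in SOX2-positive and 0.254 and 0.256 CPM in control libraries. The groups did not overlap, and EVX1 was lowest in the SOX2-negative library in which most HOX genes were highest. The ratio was 28.2 between the gates (25.4 to 31.3, log2 fold change 4.88 ± 0.37 SE, adjusted p = 7.7e-06), 515 against control at 100 ng/ml (295 to 997, adjusted p = 2.3e-05) and 488 at 1000 ng/ml (279 to 945, adjusted p = 2e-05, edgeR). The last was 291 without SOX2-negative replicate 1 and 743 without replicate 2. In SOX2-positive cells EVX1 was also higher than in control, with a log2 fold change of 3.56 ± 0.69 SE at 100 ng/ml (adjusted p = 0.016) and 4.65 ± 0.67 SE at 1000 ng/ml (adjusted p = 0.0035, edgeR). The call at 100 ng/ml was lost without any 1 of its 4 libraries, and that at 1000 ng/ml without control replicate 2. EVX2, at the matching end of HOXD, was at 0 to 0.120 CPM in SOX2-negative, 0 in SOX2-positive and 0.508 and 0.769 CPM in control libraries.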

How the data were processed

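The labels give 7 groups, and the second set of libraries is a biological repeat. The authors deposited 1 table of estimated counts by gene, made with Salmon on GRCh38 per the submitters' processing notes, with no version given. Identifiers sharing a symbol were summed and counts rounded (1 HOX value, of HOXB2, was not whole). CPM used TMM-adjusted totals.

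All 12 libraries entered 1 edgeR 4.0.16 model (R 4.3.3) with 7 group means, filterByExpr (minimum count 10, total 15) and the two-sided quasi-likelihood test, adjusted by Benjamini-Hochberg over 17047 genes with a threshold of 0.05, leaving 5 residual degrees of freedom. A group with no count in either library holds no information on the spread of a gene. HOXB3, for 1, had counts in SOX2-negative groups alone. The steps were tested on simulated data. Ratios are of pooled counts per library total, with exact 95% counting intervals. Alternatives included DESeq2 1.42.0, no filter and each library left out in turn. Values in every library were given for HOX genes called or reaching 5 CPM, and HOXB1, HOXB4 and HOXB5 were added after their values were seen. Listed genes were named if fixed by name or among up to 4 called per direction.

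Per the labels, a replicate number marks a shared repeat. The replicate block sets replicate 2 against replicate 1 over all groups and does not pair the gates of the same dose and replicate. Deviations from group means correlated across genes between libraries of equal number at -0.06 to 0.22 over 10 pairs of groups, 5 over 0.1. Replicates of a group differed beyond sampling noise (chi-square per degree of freedom 21.7 to 134.2). Members and lists were chosen with earlier results of these data known. Some genes enter the counts given but are not reported here one by one.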

Additional observations from a re-analysis of the deposited data

Results flagged for a closer look

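The 2 libraries at 300 ng/ml have no replicate and entered no comparison. Their summed HOX level was above both controls (0.0508 and 0.366 CPM), and so was the lower limit of its counting interval. The summed level was 5.57 CPM in WNT3A 300 SOX2-negative (104 counts, exact Poisson 95% interval 4.55 to 6.75) and 0.951 CPM in WNT3A 300 SOX2-positive (20 counts, 0.581 to 1.47). The interval of the SOX2-positive library overlapped that of control replicate 2 (0.176 to 0.673), whose 10 counts were all of HOXD13. In the SOX2-negative library, the genes reported that had at least 10 counts while both controls had none were HOXB2 at 1.23 CPM (0.781 to 1.85), HOXB3 at 0.964 CPM (0.571 to 1.52) and HOXB9 at 1.02 CPM (0.613 to 1.59). All 3 were called in the replicated comparisons. No replicate spread can be given for these values.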

How the results depend on the processing

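No HOX gene was called lower under any alternative run. HOXA13 was also called between the gates by DESeq2 and, together with HOXB5, with no filter on low counts. Against control at 1000 ng/ml in SOX2-negative cells, HOXB4 and HOXB8 were added with no filter, and HOXB4 and HOXB5 with only the compared groups. Between the gates, 5 to 7 HOX genes were called without each library in turn. WNT3A 100 SOX2-negative against control gave 0 to 4 without a library, 1 with identifiers apart and 3 by DESeq2. WNT3A 1000 SOX2-negative against control gave 2 to 7 without a library. WNT3A 1000 against 100 in SOX2-negative gave 3 with no filter on low counts (HOXB3, HOXB8 and HOXB9). The other comparisons stayed at 0. With only the compared groups, no HOX gene passed the filter for WNT3A 100 SOX2-negative against control or for the 3 comparisons within SOX2-positive cells and control, so that alternative gave no value there. With the replicate block the 3 comparisons with calls gave 5, 4 and 5, in this order, losing HOXA13 against control at 1000 ng/ml and changing no other HOX call. The causes were not tested. At 0.5 CPM in place of 1, the HOX genes detected were 4 in WNT3A 100 SOX2-negative replicate 2, 4 in WNT3A 300 SOX2-negative and 17 in WNT3A 1000 SOX2-negative replicate 2. At 2 CPM they were 1, 0 and 6 in these libraries, 2 in WNT3A 1000 SOX2-negative replicate 1 and 0 in WNT3A 1000 SOX2-positive replicate 1. CPM over plain totals changed no such number. Of the listed genes called, 10 of 19 between the gates, 6 of 22 and 8 of 16 against control at 100 and 1000 ng/ml in SOX2-negative cells, and 0 of 5 and 0 of 7 in SOX2-positive cells were called under every alternative run.

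With 2 libraries a group and most HOX genes under 1 CPM, a group of 2 at 0 allows only bounds, and a lone library left in a group was taken to vary like the others. Counting intervals leave out the spread between repeats: HOXB2 had 34 and 220 counts in the WNT3A 1000 SOX2-negative libraries.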
